A study of Bos taurus with 8 samples.

Results

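The genes described here are those of the circadian clock in the lactating mammary gland of Holstein cows. The list held 10 genes, and a gene was followed where a probe set of the array (a group of short probes for 1 transcript) carried that gene's symbol alone. This rule found 11 probe sets for 6 of the 10 genes, out of 9155 genes named on the array: RORA with 3 probe sets, HLF, PER2 and BHLHE40 with 2 each, and CRY1 and NR1D1 with 1 each. CLOCK, NPAS2, PER1 and NR1D2 had no such probe set and were not analysed here, and the same was true of the core activator ARNTL (BMAL1). A gene's level is that of its brightest probe set unless another is named.

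The study asked how milk accumulation affects gene expression in the bovine mammary gland. Biopsies came from 4 lactating Holstein cows, and each cow gave 1 sample of gland that the descriptions call full, 12 h since milk removal, and 1 that they call empty, 0 h after it. No other treatment is named, the labels used here state neither age nor stage of lactation, and each of the 8 RNA samples was hybridised to an array of its own. They also leave unstated the clock hour and order of the biopsies and the udder gland sampled. Clock transcripts change over the day, so the hour of sampling cannot be told apart from the time since milk removal.

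The mammalian clock is a feedback loop of transcription. CLOCK, or its relative NPAS2, pairs with BMAL1 on E-box sequences and drives the genes of the PER and CRY proteins, which return to the nucleus and repress that pair. In a second loop the nuclear receptors RORA and NR1D1 (REV-ERB alpha) compete for the same elements, RORA activating and NR1D1 repressing BMAL1, and output factors such as HLF carry the rhythm to other genes. In mice the mammary gland has such a clock, and its genes shift between pregnancy and lactation.

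No clock gene differed between full and empty gland past the threshold of an adjusted p of 0.05 in limma, a linear model fitted to all 24016 probe sets with the cow as a block. That model called 0 of the 6 clock genes, where it called 0.0% of all probe sets. Of the 6 genes 3 were higher and 3 lower in full than in empty gland. Their median difference was -0.07 log2, while 48.6% of all 9155 genes were higher and the median of all was -0.0036. For none of the 6 did the full and empty levels separate without overlap, as they did for 0.71% of all genes. Each of the 6 had an adjusted p of 0.993. The members ran from -0.52 for RORA to 0.33 for PER2, and for every member but RORA the mean hid opposite differences in single cows. Levels and differences are given below on the log2 scale of the array signal, where a difference of 1 is 2-fold.

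**Figure D1:**
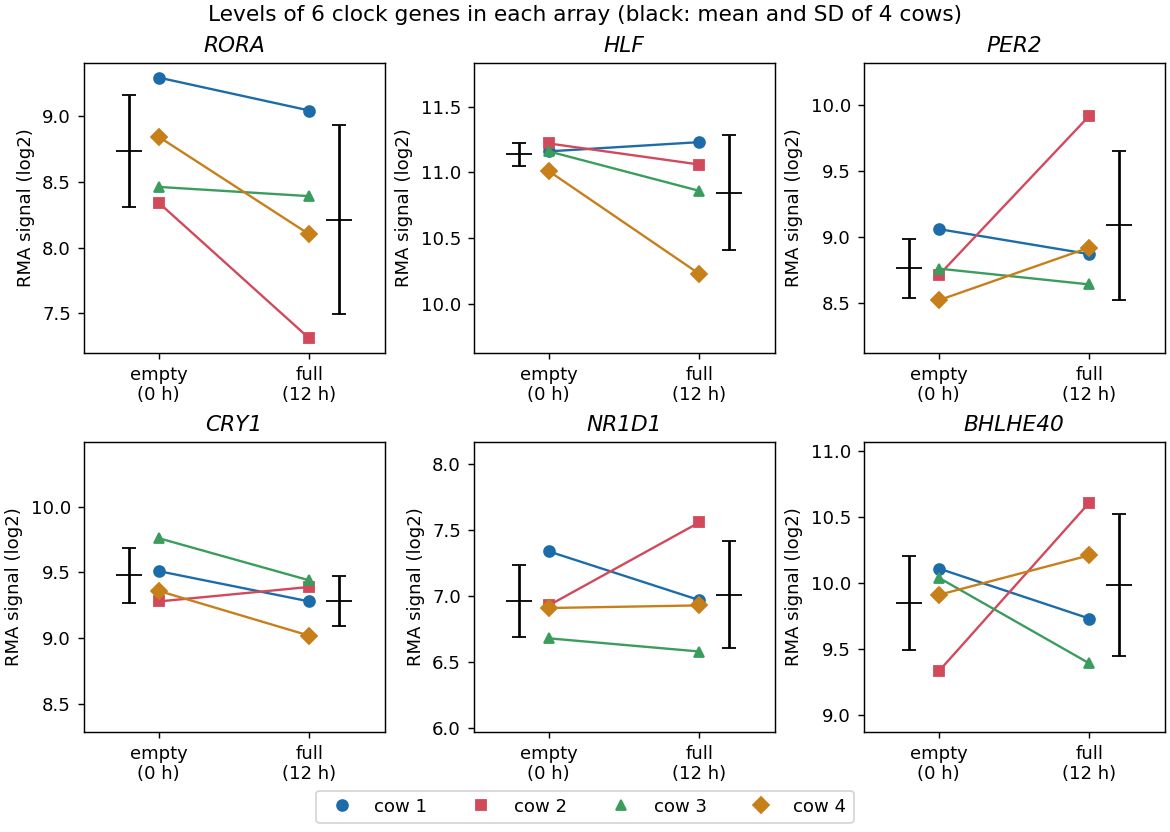
Level of each clock gene (brightest probe set, log2 RMA signal, every panel spanning the same log2 range) in empty and full gland, with a line for each of the 4 cows and the mean and SD of each state in black. RORA was lower in full gland in all 4 cows, while PER2, NR1D1 and BHLHE40 had lines of both slopes, the steepest upward lines being in cow 2.

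RORA, the nuclear receptor that activates BMAL1, was the member with the largest mean difference. In cows 1 to 4 its level was 9.29, 8.34, 8.46 and 8.84 in empty gland and 9.04, 7.31, 8.39 and 8.10 in full gland. The full value was the lower one in each cow, but the states overlapped, since full gland of cow 1 lay above empty gland of the other 3 cows. The mean was 8.73 ± 0.43 in empty and 8.21 ± 0.72 in full gland (SD, n = 4 cows each). The difference was -0.52 ± 0.17 (limma's moderated SE, n = 4 cows), which is 1.44-fold, with a 95% interval of -0.94 to -0.11. Its limma p was 0.0224 before adjustment, when 2.8% of all genes had a p under 0.05, and 0.993 after adjustment over all probe sets.

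The RORA difference was uneven between animals. From cow 1 to cow 4 it measured -0.25, -1.03, -0.07 and -0.75. In cows 2 and 4 these differences lay at the 0.933 and 0.441 percentiles of all probe sets in that cow, and in cows 1 and 3 at the 11.5 and 30.0 percentiles. RORA was the only one of the 6 members that was lower in all 4 cows, a pattern found in 7.11% of all genes.

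All 3 probe sets of RORA were lower in full gland in all 4 cows as deposited, which held for 5.97% of all probe sets. The other 2 probe sets differed by -0.39 ± 0.14 and -0.41 ± 0.16 (limma's SE, n = 4 cows), with levels between 6.56 and 8.62. Levels of the 3 probe sets followed each other over the 8 arrays, with r from 0.90 to 0.98, a description over arrays that share cows. The 3 are readings of 1 gene, and 2 of them were designed from the same sequence, so they do not count as separate evidence. They did not agree on the size in cow 2, where the second probe set differed by -0.37 against -1.03 and -0.82 for the others. For the dimmest of the 3 the difference in cow 1, -0.04, turned positive when the arrays were centred on their medians or quantile-normalized again.

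HLF, a bZIP transcription factor of the same family as DBP and TEF that carries clock output, was lower in full gland in 3 of the 4 cows. Its level in cows 1 to 4 was 11.16, 11.22, 11.16 and 11.01 in empty gland and 11.23, 11.06, 10.86 and 10.23 in full gland. The empty values lay close together, with an SD of 0.09, whereas the full values spread with an SD of 0.44 and overlapped them. The difference was -0.29 ± 0.14 (limma's SE, n = 4 cows), with a 95% interval of -0.64 to 0.06 and an adjusted p of 0.993. Most of it came from cow 4, at -0.78, which lay at the 0.304 percentile of all probe sets in that cow, against 0.07, -0.16 and -0.30 in cows 1 to 3.

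The second HLF probe set had nearly the same mean difference, -0.28 ± 0.25 (limma's SE, n = 4 cows), but reached it in other animals. In cows 1 to 4 it differed by 0.28, -1.15, 0.18 and -0.44, so the lowest full library was that of cow 2 and not of cow 4. The probe sets shared a direction in 3 of the 4 cows, and their levels had r = 0.57 over the 8 arrays. In cow 2 they disagreed by 0.99 log2, and in cow 3 by -0.48 with opposite signs.

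**Figure D2:**
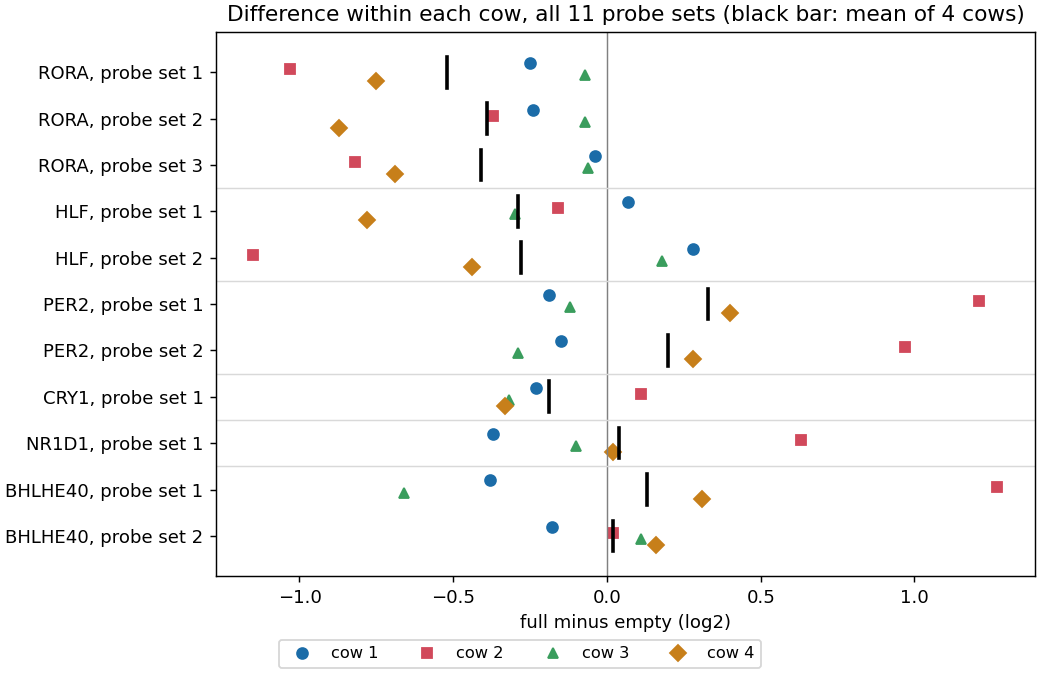
Full minus empty difference (log2) within each cow for all 11 probe sets, numbered from the brightest to the dimmest of each gene, with the mean of the 4 cows as a black bar. The 3 RORA probe sets lie at or left of -0.04 in every cow, and PER2 and the first BHLHE40 probe set lie right of 0 in cows 2 and 4 and left of it in cows 1 and 3.

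Among the repressors, PER2 had the largest difference. PER2, a scaffold that binds CRY proteins and carries them to the CLOCK and BMAL1 pair, had levels of 9.06, 8.71, 8.76 and 8.52 in empty gland and 8.87, 9.92, 8.64 and 8.92 in full gland of cows 1 to 4. Full gland of cow 2 was the highest of the 8 libraries, and the other 3 full libraries lay within the range of the empty ones. The difference was 0.33 ± 0.24 (limma's SE, n = 4 cows), with a 95% interval of -0.27 to 0.92 and an adjusted p of 0.993. By cow it was -0.19, 1.21, -0.12 and 0.40. The 1.21 in cow 2, a 2.32-fold higher level, lay at the 99.4 percentile of all probe sets in that cow. The second PER2 probe set had the same sign in every cow, at -0.15, 0.97, -0.29 and 0.28, and followed the first with r = 0.97 over the 8 arrays.

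BHLHE40 (DEC1), a repressor that binds E-boxes and is also induced by many stimuli, showed the widest disagreement between cows. Its level in cows 1 to 4 was 10.11, 9.33, 10.04 and 9.91 in empty gland and 9.73, 10.61, 9.39 and 10.21 in full gland. Cow 2 therefore had both the lowest library, in empty gland, and the highest, in full gland. The differences of -0.38, 1.27, -0.66 and 0.31 averaged 0.13 ± 0.32 (limma's SE, n = 4 cows), with a 95% interval of -0.64 to 0.91 and an adjusted p of 0.993. The value in cow 2 lay at the 99.5 percentile of that cow's probe sets and the value in cow 3 at the 0.137 percentile. The second, dimmer BHLHE40 probe set, between 6.55 and 7.38, differed by -0.18, 0.02, 0.11 and 0.16 in cows 1 to 4. In cow 3 its sign was opposite to that of the first, and its levels did not follow the first (r = 0.08 over the 8 arrays).

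NR1D1, the haem-binding receptor that represses BMAL1, had a dim signal, close to the arrays' median levels. In cows 1 to 4 it was at 7.34, 6.93, 6.68 and 6.91 in empty gland and at 6.97, 7.56, 6.58 and 6.93 in full gland. The highest library was again full gland of cow 2, while the other full libraries lay near or below the level in empty gland of the same cow. The difference was 0.04 ± 0.16 (limma's SE, n = 4 cows), with a 95% interval of -0.36 to 0.45 and an adjusted p of 0.993, made up of -0.37, 0.63, -0.10 and 0.02 in the 4 cows. The last of these turned negative when the arrays were centred on their medians or quantile-normalized again.

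CRY1, the cryptochrome that blocks the CLOCK and BMAL1 pair directly and works as a partner of PER2, had a negative mean difference. Its level was 9.51, 9.28, 9.76 and 9.36 in empty gland and 9.28, 9.39, 9.44 and 9.02 in full gland of cows 1 to 4. It was lower in full gland in cows 1, 3 and 4, by -0.23, -0.32 and -0.33, and higher by 0.11 in cow 2, and the states overlapped. The difference was -0.19 ± 0.10 (limma's SE, n = 4 cows), with a 95% interval of -0.43 to 0.05 and an adjusted p of 0.993.

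Seen by animal, the members did not move as 1 block. By their brightest probe sets, all 6 were lower in full gland of cow 3, where 55.7% of all genes were lower. The second probe sets of HLF and BHLHE40 were higher there, by 0.18 and 0.11. In cow 1, 5 of 6 were lower, where 63.1% of all genes were. In cow 2, 4 of 6 were higher beside 54.2% of all genes, and in cow 4 3 of 6 beside 53.2%. PER2, NR1D1 and BHLHE40 were lower in cows 1 and 3 and higher in cows 2 and 4, a split that 17.3% of all genes showed and that was picked out after the values were seen. For NR1D1 the sign in cow 4 depended on the scaling, as given above. Among the cell type marker lists, 3 had the same split in their means: fibroblast and matrix, myeloid and lymphoid. The other lists, given below, did not have it. In cows 1 to 4 the mean of the fibroblast and matrix markers differed by -0.37, 0.38, -0.11 and 0.80, of the myeloid markers by -0.23, 0.36, -0.15 and 0.67, and of the lymphoid markers by -0.17, 0.19, -0.08 and 0.46. Of the 8 fibroblast and matrix markers, 0, 7, 1 and 8 were higher in full gland of cows 1 to 4. For the 8 myeloid markers these counts were 1, 6, 3 and 7, and for the 7 lymphoid ones 0, 6, 2 and 6. The part of these markers in the values of the 3 clock genes was not tested. By the brightest probe sets, differences over 2-fold occurred in cow 2 only, for RORA, PER2 and BHLHE40. That is 3 of 6 members beside 2.45% of all genes in that cow. No other probe set of these 3 genes passed 2-fold in cow 2, the second of PER2 coming nearest at 1.96-fold. The second HLF probe set did pass there, at -1.15. In cows 1, 3 and 4 no member passed 2-fold, and 0.12%, 0.0655% and 1.59% of all genes did.

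Over the 8 arrays the levels of PER2 and NR1D1 followed each other with r = 0.85, PER2 and BHLHE40 with r = 0.76 and NR1D1 and BHLHE40 with r = 0.69. Without the arrays of cow 2 these were 0.70, 0.53 and 0.56. RORA and PER2 ran in opposite directions with r = -0.62 over the 8 arrays, but with r = 0.28 over the 6 arrays of the other cows, so the inverse relation rested on cow 2. Other pairs with RORA also changed when cow 2 was left out: RORA and HLF went from r = 0.33 to 0.77, the highest of all pairs over the 6 arrays, and RORA and NR1D1 from -0.25 to 0.71. HLF and CRY1 had r = 0.62, and 0.72 without cow 2. These are descriptions over 8 arrays from 4 animals, 15 pairs of members were computed, and none was tested.

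The cows themselves did not differ in these genes past the threshold. The limma F-test between cows called 0 of the 6 members, where it called 0.481% of all genes. The smallest adjusted p among them, 0.214, belonged to RORA, whose means over both states were 9.17, 7.82, 8.42 and 8.47 in cows 1 to 4. BHLHE40 had the largest, 0.941, with cow means between 9.71 and 10.06, narrower than its spread between states within cow 2. The 2 BHLHE40 probe sets disagreed here. For the dimmer one the F-test gave an adjusted p of 0.169, below that of RORA, with cow means of 7.29, 6.56, 6.91 and 7.15. Without cows 2 and 4 the test compared only cows 1 and 3, and RORA and NR1D1 then passed with adjusted p of 0.00733 and 0.0278 from limma on 4 arrays, a fit with 1 residual degree of freedom that called 1820 probe sets.

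The other genes of the clock pathway came from a list of 46 symbols, some of them different names of 1 gene, of which 25 were measured. None passed the limma test in either direction. Of the 25, 11 were higher and 14 lower in full gland, the median difference was -0.02, and 2 were higher and 3 lower in all 4 cows, beside 3.59% and 7.11% of all genes. By the brightest probe sets, the widest mean differences of the list were -0.28 and 0.19, narrower than the -0.52 and 0.33 of the members. That comparison was not tested, and the members were chosen with earlier results of these data known. A dimmer probe set of CSNK1D differed by 0.33.

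The 4 pathway genes with the smallest unadjusted p were FBXW7, CSNK2A1, CREBBP and NOCT, each with an adjusted p of 0.993 in limma. FBXW7, the substrate receptor of a ubiquitin ligase that in mice acts on NR1D1 protein, differed by -0.25 ± 0.10 (SE, n = 4 cows) and was lower in all 4 cows, at -0.27, -0.52, -0.18 and -0.03. CSNK2A1, a catalytic subunit of casein kinase 2, differed by 0.14 ± 0.08 and was higher in all 4. CREBBP, a histone acetyltransferase and coactivator, differed by 0.19 ± 0.12, with 0.56 in cow 2 and -0.08 in cow 3. NOCT (nocturnin), whose transcript cycles in mouse liver, was lower in all 4 cows by -0.10 ± 0.07. In cow 2 FBXW11, another ubiquitin ligase receptor, differed by -1.14. It was the only pathway gene outside the members whose brightest probe set passed 2-fold in any cow. A dimmer probe set of NAMPT differed by -1.36 in cow 1. FBXW11 and NAMPT are named because of these values.

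**Figure D3:**
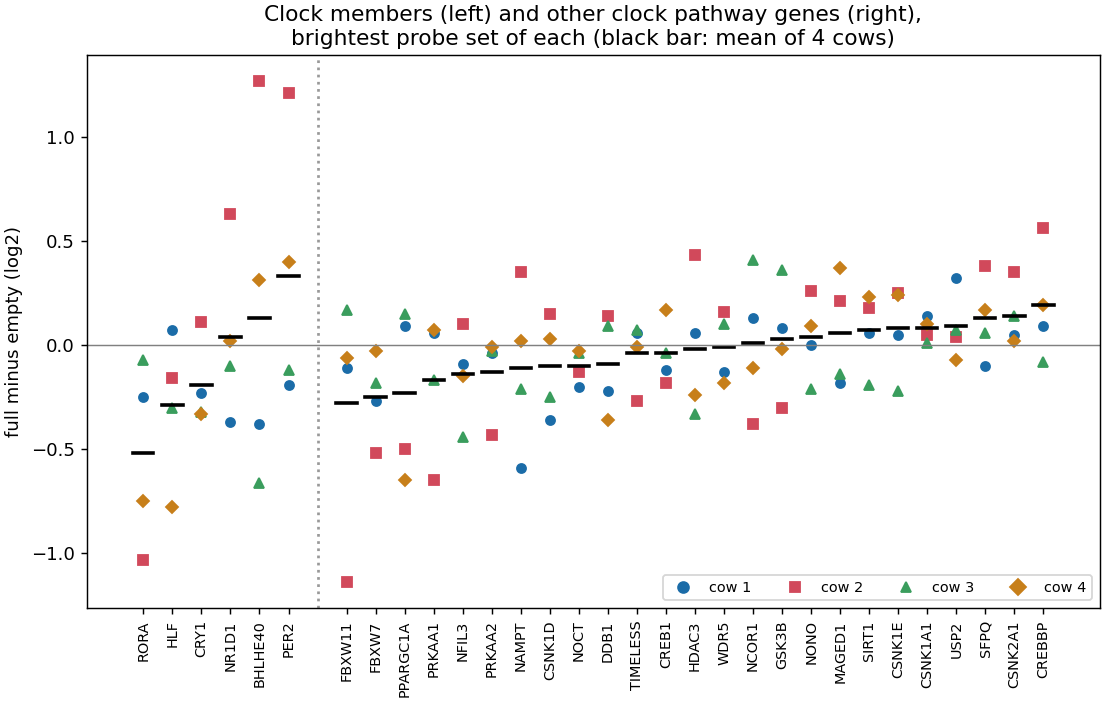
Full minus empty difference (log2) of the brightest probe set within each cow, for the 6 clock members on the left and the 25 other pathway genes on the right, each set ordered by its mean (black bar). Mean differences run from -0.52 to 0.33 on the left and from -0.28 to 0.19 on the right, and every point past 1 in size is from cow 2.

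Genes with the most similar level pattern were sought for the 3 members with the smallest unadjusted p, RORA, HLF and CRY1, among 6078 other genes at or above the median level. For RORA these were ACSS1, IFT20 and IGBP1, with r of 0.979, 0.977 and 0.973 over the 8 arrays. ACSS1 differed by -0.64 in cow 2 and -0.50 in cow 4, and by 0.0012 and 0.05 in cows 1 and 3. For HLF they were PEX11G, DGAT1 and HNRNPLL, with r of 0.989, 0.964 and 0.960, and for CRY1 ZW10, EPRS1 and CITED4, with r of 0.982, 0.981 and 0.963. With so many genes searched over 8 arrays that share 4 cows, high values arise readily, and these are descriptions only.

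The larger differences of the members lay mostly in cows 2 and 4, whose full gland arrays resembled the others least. Their median correlation with the other 7 arrays was 0.9690 in cow 2 and 0.9753 in cow 4, while no other array was below 0.9856. In the GAPDH control of the array, the 5' probe set minus the 3' one was -3.31 in full gland of cow 2. It lay between -2.13 and -1.53 in the other 7 libraries. RNA length can affect this measure. For the EF1A control it was 0.75 in full gland of cow 2 and 1.25 to 1.96 in the others. For the actin control it was -1.36 in full gland of cow 4 and -0.07 to 0.07 elsewhere. The controls did not all single out the same library. Actin was at 0.07 in full gland of cow 2, and GAPDH and EF1A were at -1.71 and 1.91 in full gland of cow 4. Beside the 3 marker lists given above, myoepithelial markers differed by -0.10, 0.29, 0.01 and 0.67 in cows 1 to 4. Of the 8 myoepithelial markers, 3, 6, 4 and 8 were higher in full gland of cows 1 to 4. Endothelial markers differed by -0.38 in full gland of cow 2 (1 of 7 higher) and by -0.16, 0.11 and 0.05 in cows 1, 3 and 4. The mean of the adipocyte markers was lower in every cow, at -0.12, -0.11, -0.03 and -0.25. Of the 4 measured, 1, 2, 2 and 0 were higher in full gland of cows 1 to 4. Skeletal muscle markers differed by -0.11, -0.06, 0.08 and 0.54. Luminal secretory markers, 8 of 8 measured, averaged 12.25 to 12.61 in full and 12.23 to 12.51 in empty gland, and differed by -0.06, 0.05, 0.02 and 0.26. Of these 8, 6, 3, 4 and 4 were higher in full gland of cows 1 to 4. In cows 1 and 2 most of them thus went against their mean. The part of RNA length and of the cell mixture in the members' values was not tested, and in a biopsy fewer cells of a type and less RNA per cell cannot be told apart.

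Without cow 2, the members' median was -0.27, and BHLHE40 and NR1D1 differed by -0.25 and -0.15 in place of 0.13 and 0.04. PER2 then differed by 0.03 and CRY1 by -0.29 in place of 0.33 and -0.19. HLF differed by -0.13 without cow 4. Without cows 2 and 4, RORA differed by -0.16, PER2 by -0.16 and BHLHE40 by -0.52, and none passed in limma.

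**Figure D4:**
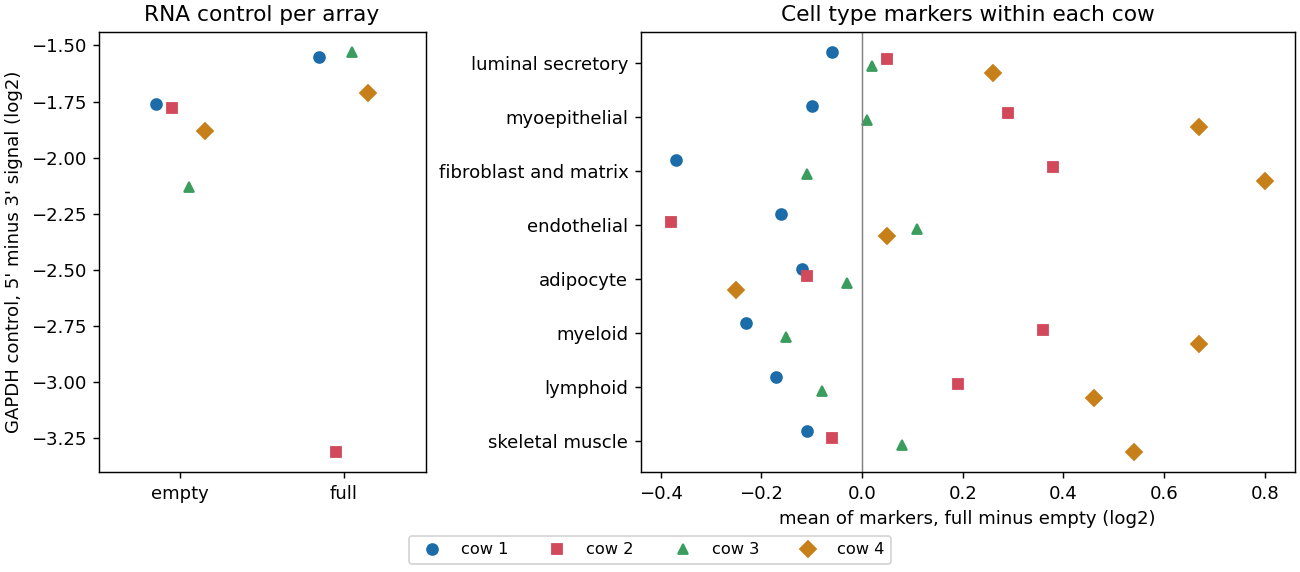
Left, the 5' minus 3' signal (log2) of the GAPDH control in each of the 8 arrays, with full gland of cow 2 lowest at -3.31. Right, the full minus empty difference (log2) of the mean of each cell type marker list within each cow, with fibroblast, myoepithelial, myeloid and lymphoid markers highest in cow 4 and next highest in cow 2.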

How the data were processed

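Values were deposited on a log2 scale, and the authors used RMA, per the submitters' processing notes (background correction, quantile normalization and summary of probes; version not given in the sources used here). Per the labels' protocols, RNA was isolated with Trizol and amplified from an oligo(dT) primer, which favours the 3' end of transcripts. The log2 scale was read from the values, 4.98 to 14.43. Array medians were 7.08 to 7.24, so the deposited arrays are not exactly equal in distribution. Arrays have no read depth, and their number limits the precision.

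Of 24128 probe sets, 112 controls were left out. Gene names came from the platform annotation, which can be old. All 11 member probe sets kept their symbol when matched by entrez number to the RefSeq genes of ARS-UCD2.0. No sequences and no coordinates are given.

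Differences were fitted in R 4.3.3 with limma 3.58.1 by lmFit and eBayes (two-sided tests), with state and cow as fixed terms and Benjamini-Hochberg adjustment over 24016 probe sets. The fit was tested on simulated data. Tables were made with Python 3.11.15, numpy 2.4.6 and pandas 2.3.3, and figures with matplotlib 3.10.9. The cow block follows the sample descriptions, which give each cow number to 1 full and 1 empty gland. Same-numbered samples deviated together from their group means, at r = 0.32 to 0.60 within cows, against -0.03 or below between cows. With group means taken off, positive values within cows force those between cows to be negative on average. The 2 ranges are therefore not separate evidence for the pairing.

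The members and lists were chosen with earlier results of these data known, so lists have counts and medians and no p. Named were all members and, by the smallest unadjusted p, 4 genes of each other list, and the 3 genes most correlated with each of 3 members. FBXW11, NAMPT and CSNK1D were named after their values were seen. Alternatives were cow as a random block, no replicate block, 2 other scalings, brighter probe sets only, an intensity trend with robust prior, array weights, a gene's probe sets averaged, and cows left out.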

Additional observations from a re-analysis of the deposited data

How the results depend on the processing

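Of 75 values of the 6 members under the alternatives, 68 kept their direction and none of those tested passed an adjusted p of 0.05 in limma, the smallest being 0.514. RORA, HLF and CRY1 kept their sign throughout, RORA between -0.67 and -0.16. With 1 cow left out NR1D1 ran from -0.15 to 0.18 and BHLHE40 from -0.25 to 0.40. The sign turned for BHLHE40 with array weights (-0.24), without replicate 2 (-0.25) and without cows 2 and 4 (-0.52), for NR1D1 likewise (-0.09, -0.15 and -0.24) and for PER2 without cows 2 and 4 (-0.16). The cause was not tested. Members' medians ran from -0.27 to 0.0010 with 1 cow left out and reached -0.25 with array weights. Medians of the other clock pathway genes stayed between -0.06 and 0.0039.

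The fit with no replicate block called 0 probe sets between full and empty, as did the fit with the cow block, where 600 had an unadjusted p under 0.05. It changed no call of a member. The F-test between cows called 105 probe sets, but 208 with arrays centred on their medians, 248 with an intensity trend and robust prior, 286 with array weights, and 1820 without cows 2 and 4. With 1 cow left out it called between 13 and 131.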

Other observations

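Genes that answer to signals able to reset clocks were also read. Of 12 genes of the glucocorticoid response 10 were measured, with 6 higher and 4 lower in full gland and a median of 0.16 log2, and none passed in limma. That median was 0.10 without cow 1, 0.11 without cow 4, 0.24 without cow 3 and 0.06 without cows 2 and 4. ERRFI1, an inhibitor of EGF receptor signalling, differed by 0.44 ± 0.17 (SE, n = 4 cows) and was higher in all 4 cows, with 1.06 in cow 2. CEBPD, a C/EBP transcription factor, differed by 0.22 ± 0.09, GLUL, glutamine synthetase, by 0.15 ± 0.08, and the kinase SGK1 by 0.33 ± 0.18, with -0.02, 0.31, 0.06 and 0.99 in cows 1 to 4. FKBP5, which binds the glucocorticoid receptor complex, and ZBTB16, a zinc finger factor, are named after their values were seen. FKBP5 differed by 0.32, -0.49, 0.48 and -0.45 in cows 1 to 4, and ZBTB16 by 0.17, -0.34, -0.10 and -0.79. FKBP5 was thus higher in cows 1 and 3 and lower in cows 2 and 4, the reverse of PER2 in each cow. The share of all genes with that split was not computed, and a relation to PER2 was not tested.

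Of 12 symbols of cAMP and temperature signalling 10 were measured, with 6 higher and 4 lower and a median of 0.05, and none passed in limma. The sign of that median was not stable: it was -0.03 among brighter probe sets, -0.0079 with array weights, -0.0085 without cow 4 and -0.12 without cows 2 and 4, and 0.02 and 0.01 without cows 2 and 3. NR4A1, an immediate early nuclear receptor, differed by 0.28 ± 0.16 (SE, n = 4 cows), with 0.68 in cow 2 and 0.57 in cow 4. CRTC2, a coactivator of CREB, was lower in all 4 cows by -0.13 ± 0.07. RBM3, an RNA-binding protein induced by cold, differed by 0.10 ± 0.11, and the heat shock gene HSPA1A by 0.13 ± 0.11. The dimmer probe sets of HSPA1A had differences of both signs, from -0.18 to 0.08. Each of the 8 genes named by their unadjusted p in these lists had an adjusted p of 0.993.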
